A study of Mus musculus with 16 samples.

Results

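The bile acid and sterol transporters of the liver were followed here as 10 genes, chosen by symbol: Slc10a1, Slco1a1, Slco1a4, Slco1b2, Abcb11, Abcb4, Abcc2, Abcc3, Abcg5 and Abcg8. All 10 were found among the 30199 genes of the table, and all 10 passed the filter on low values. The livers came from 16 female mice aged 5 months, and polyadenylated RNA of each gave 1 library. There were 4 mice per genotype: wild type, heterozygous for a deletion of Ncoa5 (Ncoa5+/-), heterozygous for a deletion of Tip30 (Tip30+/-) and heterozygous for both (Ncoa5+/-Tip30+/-, called double heterozygotes below). The product of Ncoa5 is a nuclear receptor coregulator. Tip30 is an older name of Htatip2, which has been studied as a tumour suppressor gene. All mice ate a standard rodent diet, the labels call the tissue mainly hepatocytes, and the sources used here do not give the strain. Mice are numbered 1 to 4 within a genotype in the order of the samples, which pairs none of them across genotypes.

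Bile acids circulate between liver and gut. Hepatocytes take them up from sinusoidal blood through the sodium-dependent carrier encoded by Slc10a1 (NTCP) and through organic anion carriers of the Slco1 family, and they pump them into the bile canaliculus through the bile salt export pump encoded by Abcb11. Phospholipid, conjugated organic anions and sterols reach bile through the products of Abcb4, Abcc2 and the Abcg5 and Abcg8 heterodimer, and Abcc3 exports organic anions back to blood. Nuclear receptors that sense bile acids, oxysterols and foreign compounds are known to control many of these genes.

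Start-site sequence is shown for the genes on which the results turn: Slc10a1, Slco1b2 and Slco1a1, and the gap between the divergent starts of Abcg5 and Abcg8. Each was read from RefSeq on GRCm38.p6, which listed a start for 9 of the 10 genes (none for Abcc3), and none of the 4 stretches overlaps an exon of GENCODE M21. Capitals mark every match, on either strand, to AGGTCA (the half-site of many nuclear receptors), GTTAAT (the half-site of HNF1), TATAAA (the TATA box) or TTCNNNGAA (the element bound by STAT dimers). No match overlaps one of another motif in these stretches. The first 3 are the 250 bases before the start, in the direction of transcription.
Slc10a1, chr12:80968706-80968955, minus strand: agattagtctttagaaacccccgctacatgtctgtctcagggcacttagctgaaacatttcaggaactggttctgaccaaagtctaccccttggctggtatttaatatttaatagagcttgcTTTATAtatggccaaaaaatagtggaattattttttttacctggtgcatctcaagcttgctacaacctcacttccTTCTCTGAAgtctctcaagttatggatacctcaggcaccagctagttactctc
Slco1b2, chr6:141629268-141629517, plus strand: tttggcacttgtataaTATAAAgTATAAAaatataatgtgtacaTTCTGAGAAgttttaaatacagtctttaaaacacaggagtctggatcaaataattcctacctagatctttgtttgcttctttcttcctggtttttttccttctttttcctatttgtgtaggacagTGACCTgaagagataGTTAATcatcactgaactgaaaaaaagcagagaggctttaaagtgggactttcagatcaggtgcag
Slco1a1, chr6:141946963-141947212, minus strand: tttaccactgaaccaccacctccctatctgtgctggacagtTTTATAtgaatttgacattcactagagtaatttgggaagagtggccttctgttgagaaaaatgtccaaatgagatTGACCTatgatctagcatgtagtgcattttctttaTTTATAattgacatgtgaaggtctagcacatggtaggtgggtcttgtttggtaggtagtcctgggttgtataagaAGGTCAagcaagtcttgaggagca
Abcg5-Abcg8 gap, chr17:84683012-84683120, plus strand: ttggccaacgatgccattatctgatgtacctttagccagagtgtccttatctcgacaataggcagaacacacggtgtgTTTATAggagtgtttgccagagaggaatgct

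In the Slc10a1 stretch, TTCNNNGAA lay 53 to 45 bases and TATAAA, on the opposite strand, 128 to 123 bases before the start. RefSeq also lists another Slc10a1 start, at 80968079 and not shown, with AGGTCA 87 to 82 bases before it. The Slco1b2 stretch held all 4 motifs, with AGGTCA 81 to 76 bases and GTTAAT 66 to 61 bases before the start. The Slco1a1 stretch held AGGTCA at 2 places and TATAAA at 2 places, both TATAAA matches on the opposite strand. Over 32851 RefSeq windows of the same length, 14.0% held AGGTCA, 6.43% GTTAAT, 12.4% TATAAA and 7.02% TTCNNNGAA, so each motif is common in such windows. A match is a string of letters and not a measured site of binding.

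The authors' values are read counts divided by 1 size factor per library, called normalized counts here. Libraries held 24740706 to 37939978 reads in genes, and mitochondrial genes took 3.42% to 5.80% of them. As a check of the labels, Htatip2 stood at 685 to 1088 normalized counts in the 8 livers with the Tip30 deletion and at 1835 to 2910 in the 8 others, with no overlap. Ncoa5 stood at 339 to 424 in the 8 livers with the Ncoa5 deletion and at 380 to 480 in the others, so its transcript overlapped between genotypes and does not check that label. Defining hepatocyte markers (Alb, Apoa1, Ttr and 5 more) were all tested, and their summed level was the highest of the cell types looked at. Livers stood apart in 2 ways that touch the results below. Wild type 1 and 2 and Ncoa5+/- 1 and 4 had 8.77 to 26.3 normalized counts of Zhx2, a transcriptional repressor of liver genes, against 167 to 438 in the other 12 livers. The mouse numbers in the column names fall under 4300 for 9 mice and at 4300 or over for 7 mice, in every genotype.

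Transporter transcripts differed widely in level. Per kilobase of exon, in wild-type livers, Slc10a1 was highest at 6581 ± 1002 normalized counts per kb (SD, n = 4). Abcb11 at 3782 ± 377 and Slco1b2 at 3181 ± 1022 followed and did not differ beyond their spread. Abcc3 stood at 1778 ± 475. Abcg5, Abcg8, Abcc2 and Abcb4 lay together, at 970 ± 170, 833 ± 258, 816 ± 107 and 786 ± 224 per kb, within each other's spread. Slco1a4 stood at 497 ± 20.9 and Slco1a1 was lowest at 101 ± 161. With all exons of a gene as its length, these levels per kb are approximate.

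**Figure D1:**
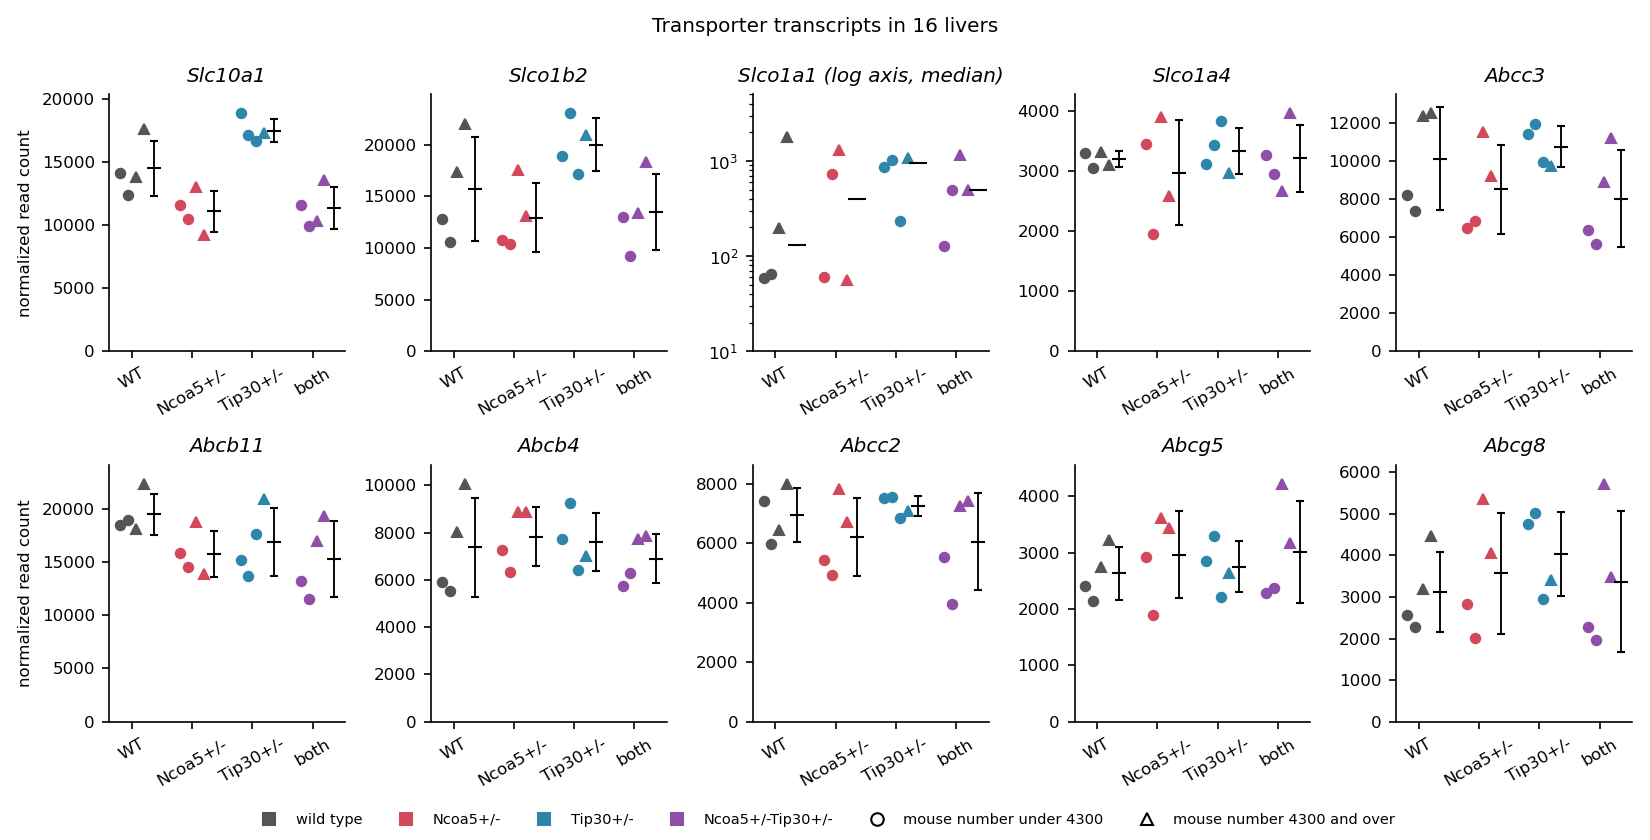
Normalized read counts of the 10 transporters in each of the 16 livers, by genotype ("both" is Ncoa5+/-Tip30+/-). Circles are mice numbered under 4300 and triangles those at 4300 or over; black bars are the mean ± SD of 4 mice, except for Slco1a1, where the axis is logarithmic and the bar is the median. Slc10a1 runs from 9224 to 13567 in the 8 livers with the Ncoa5 deletion and from 12365 to 18822 in the 8 without.

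Slc10a1 (ENSMUSG00000021135, GRCm38 chromosome 12, 80953183 to 80968705, minus strand), the carrier that brings most conjugated bile acids into the hepatocyte, fell with the Ncoa5 deletion. Wild-type livers had 14136, 12365, 13817 and 17566 normalized counts. Ncoa5+/- livers had 11538, 10487, 13020 and 9224. Tip30+/- livers had 18822, 17092, 16663 and 17295, and the double heterozygotes had 11605, 9937, 10274 and 13567. Livers with the Ncoa5 deletion were low and those without it high: of the 8 with the deletion, Ncoa5+/- 3 and double heterozygote 4 lay above 1 liver without it, wild type 2, and the other 6 lay below every liver without it. Tip30+/- livers were the highest group and also the tightest, with a coefficient of variation of 5.38% against 14.5% to 15.2% in the other groups. Averaged over both Tip30 backgrounds, livers with the deletion had 70.3% of the level of those without (log2 difference -0.51 ± 0.09 SE, 95% interval -0.71 to -0.31, adjusted p = 0.00402 by limma over 15263 genes; exact permutation p = 0.000816 within backgrounds, 2-sided). By this rule 7.89% of all genes passed in that comparison and 3.95% passed as lower, and Slc10a1 was the only one of the 10 transporters to pass. In bulk liver, fewer hepatocytes and less of the transcript per hepatocyte cannot be told apart.

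Against Tip30+/- livers, Slc10a1 was lower in both groups that carry the Ncoa5 deletion, with no overlap. Double heterozygotes had 64.5% of the Tip30+/- level (log2 difference -0.63 ± 0.13 SE, adjusted p = 0.0191, exact permutation p = 0.0286, the smallest that 4 mice against 4 can give). In that comparison 3.07% of genes passed, and 9.05% did not overlap and were lower. Ncoa5+/- livers had 62.9% of the Tip30+/- level (-0.67 ± 0.13 SE, adjusted p = 0.0119, exact permutation p = 0.0286), where 2.16% of genes passed and 5.80% did not overlap and were lower. The 2 comparisons share the Tip30+/- mice. The summed level of 8 hepatocyte markers also did not overlap between double heterozygotes (2134960 to 2793570 normalized counts) and Tip30+/- livers (2805250 to 3255240), and its part in the lower Slc10a1 was not tested. The first missed the threshold without Tip30+/- 1 or 2 or double heterozygote 2 or 3 (adjusted p = 0.0549, 0.0524, 0.0848 and 0.0607), and the second without the 4 livers low in Zhx2 (-0.58, adjusted p = 0.180).

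Against wild type, Slc10a1 passed in no genotype. It stood at 76.5% of wild type in Ncoa5+/- livers (log2 difference -0.39 ± 0.13 SE, adjusted p = 0.267, exact permutation p = 0.0571), where 0.557% of genes passed. It stood at 78.5% in double heterozygotes (-0.35 ± 0.13, adjusted p = 0.136, exact permutation p = 0.0571), where 2.67% passed. In Tip30+/- livers it stood at 122% of wild type (0.28 ± 0.13, adjusted p = 0.679, exact permutation p = 0.114), where 0.0131% passed. Double heterozygotes and Ncoa5+/- livers differed by 0.04 ± 0.13 (95% interval -0.24 to 0.31, adjusted p = 0.946), where 0.0197% of genes passed. The interaction, which asks whether the 2 deletions together differ from the sum of each alone, was -0.25 ± 0.19 (95% interval -0.64 to 0.15, adjusted p = 0.950).

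The lower Slc10a1 with the Ncoa5 deletion was also seen on each side of the mouse numbers. Under 4300, the 4 livers with the deletion had 9937 to 11605 and the 5 without had 12365 to 18822. At 4300 and over, the 4 with it had 9224 to 13567 and the 3 without had 13817 to 17566. Neither range overlapped, as was so for 6.53% and 8.60% of genes in the lower direction. The average log2 difference was -0.49 among the lower mouse numbers (adjusted p = 0.01515 by limma) and -0.53 among the higher (adjusted p = 0.238 by limma, with 7 mice in the fit).

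**Figure D2:**
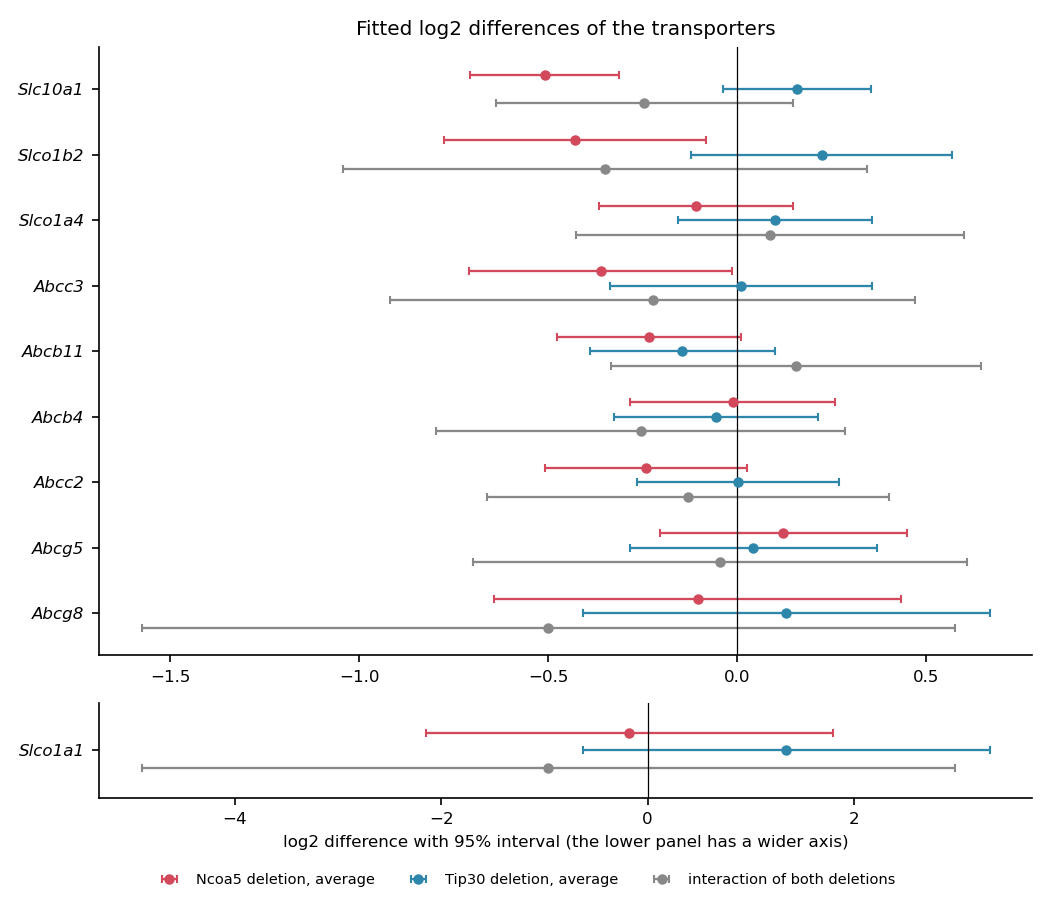
Fitted log2 difference of each transporter with its 95% interval, for the Ncoa5 deletion averaged over both Tip30 backgrounds (red), the Tip30 deletion averaged over both Ncoa5 backgrounds (blue) and their interaction (grey). The Ncoa5 interval of Slc10a1 runs from -0.71 to -0.31; the lower panel shows Slco1a1 on a wider axis.

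Slco1b2 (ENSMUSG00000030236, chromosome 6, 141629518 to 141686646, plus strand), the main liver carrier for unconjugated bile acids and many organic anions, had 12813, 10610, 17314 and 21970 normalized counts in wild-type livers. Ncoa5+/- livers had 10717, 10373, 17580 and 13053. Tip30+/- livers had 18875, 23020, 17157 and 20925, and double heterozygotes had 12955, 9245, 13363 and 18287. Tip30+/- livers were again the highest group, but wild type 3 and 4 reached their range and so did Ncoa5+/- 3 and double heterozygote 4. The Ncoa5 average was -0.43 ± 0.16 SE on the log2 scale, 74.3% of the level without the deletion (adjusted p = 0.110), and did not pass. Against Tip30+/- livers the difference was -0.65 ± 0.23 in Ncoa5+/- (adjusted p = 0.153) and -0.60 ± 0.23 in double heterozygotes (adjusted p = 0.137). Against wild type it was -0.25, 0.40 and -0.21 (each ± 0.23) in Ncoa5+/-, Tip30+/- and double heterozygotes.

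Slco1b2 also followed the mouse numbers. With genotype in the fit, it was higher by 0.49 ± 0.12 SE on the log2 scale in livers of mice numbered 4300 or over (adjusted p = 0.0354), and 2.65% of genes passed that test. In wild-type livers it was 10610 to 12813 under 4300 and 17314 to 21970 over. The wild-type livers under 4300 are also those low in Zhx2, so mouse number and Zhx2 cannot be told apart there. The single Tip30+/- liver over 4300, at 20925, lay inside the range of the other 3. With the mouse-number range as a term in the fit, the Ncoa5 average of Slco1b2 was -0.49 (adjusted p = 0.0130). In that fit 1937 of 15263 genes passed for the Ncoa5 average, against 1205 without the term. Slco1b2 also passed there against Tip30+/- livers in Ncoa5+/- (-0.78, adjusted p = 0.0134) and in double heterozygotes (-0.73, adjusted p = 0.0168). The labels do not say what sets the mouse numbers apart.

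Slco1a1 (ENSMUSG00000041698, chromosome 6, 141907282 to 141946962, minus strand), an organic anion carrier known to be more abundant in male mouse liver, varied most of the 10, from 55.5 to 1799 normalized counts, a 32.4-fold range. Wild-type livers had 59.3, 65.2, 198 and 1799, and Ncoa5+/- livers had 60.8, 731, 1297 and 55.5. Tip30+/- livers had 866, 1033, 234 and 1068, and double heterozygotes had 127, 499, 1149 and 489. All 4 genotypes overlapped, but the lowest values, 55.5 to 65.2, occurred only in wild-type and Ncoa5+/- livers. Only 0.681% of tested genes had a larger SD of log2 values over the 16 livers. The 4 livers low in Zhx2 had 55.5 to 65.2, below all of the other 12 at 127 to 1799; 0.950% of genes were lower in those 4 without overlap. Those 4 livers were singled out by their Zhx2 level and not by a label, so this is a description with no test. All 4 lack the Tip30 deletion, so over all 16 livers Tip30 differences of Slco1a1 cannot be told apart from low Zhx2. None of the other 9 transporters separated them, as 2.06% of genes did in either direction.

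**Figure D3:**
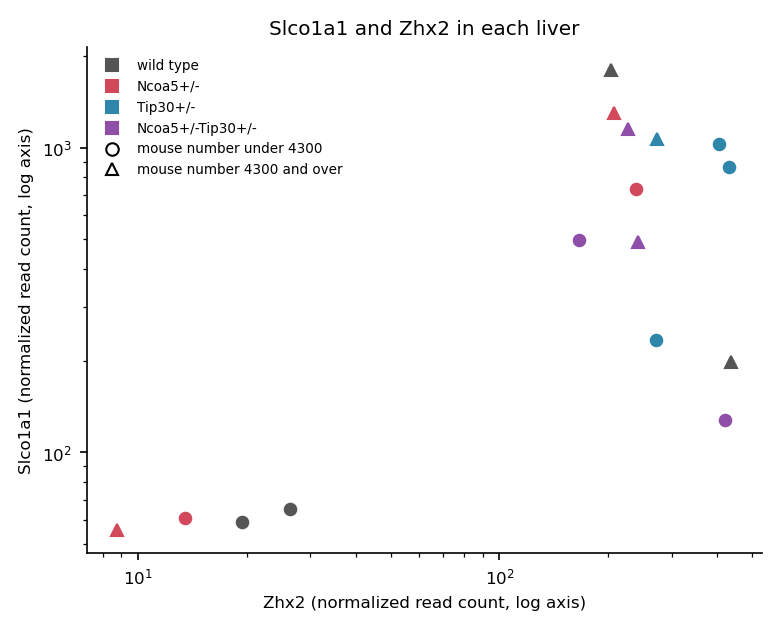
Slco1a1 against Zhx2 in each of the 16 livers, as normalized read counts on logarithmic axes, coloured by genotype. The 4 livers with Zhx2 of 8.77 to 26.3 have Slco1a1 of 55.5 to 65.2, and the other 12 lie at 127 or above.

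Within those 12 livers Slco1a1 still spread from 127 to 1799, and double heterozygote 1 and wild type 3, among the highest in Zhx2, were among the lowest in Slco1a1. The genotype differences of Slco1a1 were too imprecise to read: the Ncoa5 average was -0.18 ± 0.91 SE and the Tip30 average 1.34 ± 0.91 on the log2 scale (adjusted p = 0.924 and 0.601). Its 95% interval for the Ncoa5 average, -2.15 to 1.79, spans a more than 3-fold change either way. Over 31 settings its Tip30 average ran from -0.48 to 1.88. Of the distinct 50-base stretches in its transcripts, 1.64% also occur in those of relatives. Of the 6407 such stretches of Slco1a4, the more abundant gene, 84 occur in Slco1a1. How reads that match both were counted is not given, so their part in the lowest Slco1a1 values was not tested.

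Slco1a4 (ENSMUSG00000030237, chromosome 6, 141805440 to 141856199, minus strand), a neighbour of Slco1a1 and a carrier of organic anions and cardiac glycosides, showed no such swing. It stood at 3190 ± 134 normalized counts in wild-type livers (SD, n = 4), 2968 ± 869 in Ncoa5+/-, 3331 ± 385 in Tip30+/- and 3205 ± 556 in double heterozygotes. Its Ncoa5 average was -0.11 ± 0.12 SE (95% interval -0.37 to 0.15, adjusted p = 0.607) and its Tip30 average 0.10 ± 0.12 (adjusted p = 0.792). Ncoa5+/- livers were the most spread, from 1955 to 3901. Slco1a4 and Slco1a1 did not vary together over the 16 livers (Pearson r = -0.06, Spearman rho = -0.04, permutation p = 0.837 and 0.900), the only negative r of the 45 pairs of transporters.

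At the canalicular membrane, Abcb11 (ENSMUSG00000027048, chromosome 2, 69238282 to 69342616, minus strand), the bile salt export pump, was highest in wild-type livers, at 18472, 18963, 18098 and 22324 normalized counts. Ncoa5+/- livers had 15797, 14532, 18737 and 13907. Tip30+/- livers had 15136, 13642, 17668 and 20949, and double heterozygotes had 13161, 11506, 16990 and 19348. In each heterozygous group 3 of the 4 livers lay below every wild-type liver and 1 did not. In double heterozygotes it stood at 77.0% of wild type (log2 difference -0.38 ± 0.16 SE, unadjusted p = 0.0343 and adjusted p = 0.189 by limma, exact permutation p = 0.114), and in Ncoa5+/- at 80.6% (-0.31 ± 0.16, adjusted p = 0.552). Neither passed over all 16 livers. Within the lower mouse numbers alone, chosen after the data were seen, double heterozygotes had -0.60 (adjusted p = 0.0332 by limma). Only double heterozygotes 1 and 2 and wild type 1 and 2 are compared there, and both of these wild-type livers are low in Zhx2. Of its exon bases 3.01% overlap predicted genes on the other strand, and counting by strand is not stated.

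Abcb4 and Abcc2, the canalicular phospholipid floppase and the exporter of conjugated bilirubin and other organic anions, passed in no comparison over all 16 livers. Abcb4 (ENSMUSG00000042476, chromosome 5, 8893717 to 8959231, plus strand) stood at 7377 ± 2104 normalized counts in wild type (SD, n = 4), 7838 ± 1254 in Ncoa5+/-, 7601 ± 1230 in Tip30+/- and 6901 ± 1050 in double heterozygotes. Its Ncoa5 average was -0.01 ± 0.13 SE (95% interval -0.28 to 0.26), which leaves room for a change of up to about that size. Abcc2 (ENSMUSG00000025194, chromosome 19, 43782192 to 43840740, plus strand) stood at 6960 ± 913, 7255 ± 337 in Tip30+/-, 6224 ± 1311 in Ncoa5+/- and 6048 ± 1627 in double heterozygotes. Its Ncoa5 average was -0.24 ± 0.13 (95% interval -0.51 to 0.03, adjusted p = 0.239). Tip30+/- livers were the tightest group for Abcc2, from 6862 to 7562. Within mice numbered under 4300, a subset chosen after the data were seen, livers with the Ncoa5 deletion had 3961 to 5554 of Abcc2. Those without had 5980 to 7562, with no overlap, as was so for 6.53% of genes in the lower direction. In that fit 1694 of 15263 genes passed for the Ncoa5 average. The Ncoa5 average of Abcc2 was -0.50 there (adjusted p = 0.02415 by limma). Double heterozygotes differed there from Tip30+/- livers by -0.64 (adjusted p = 0.0323 by limma). At 4300 and over the ranges overlapped, 6706 to 7837 with the deletion and 6451 to 7995 without.

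Abcc3 (ENSMUSG00000020865, chromosome 11, 94343295 to 94392997, minus strand), which exports organic anions across the basolateral membrane, had a pattern close to that of Slco1b2. Wild-type livers had 8249, 7372, 12395 and 12519 normalized counts. Ncoa5+/- livers had 6500, 6838, 11530 and 9217. Tip30+/- livers had 11411, 11966, 9957 and 9741, and double heterozygotes had 6367, 5632, 8881 and 11227. The Ncoa5 average was -0.36 ± 0.16 SE, 77.9% of the level without the deletion (unadjusted p = 0.0427, adjusted p = 0.175 by limma), where 26.1% of all genes had an unadjusted p under 0.05. Abcc3 was higher in mice numbered 4300 or over by 0.51 ± 0.11 (adjusted p = 0.0281). In wild type, Ncoa5+/- and double heterozygotes both livers over 4300 lay above both under it, and in Tip30+/- the 1 liver over 4300 was the lowest. In wild type the livers under 4300 are also those low in Zhx2, so mouse number and Zhx2 cannot be told apart there. With the mouse-number range in the fit the Ncoa5 average was -0.42 (adjusted p = 0.0213), where 1937 of 15263 genes passed against 1205 without that term. Double heterozygotes then passed against Tip30+/- livers (-0.60, adjusted p = 0.0310). Under 4300 alone, chosen after the data were seen, livers with the Ncoa5 deletion had 5632 to 6838 and those without 7372 to 11966. Such a lack of overlap was seen for 6.53% of genes in the lower direction. At 4300 and over the ranges overlapped.

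Abcg5 (ENSMUSG00000040505, chromosome 17, 84658234 to 84683011, minus strand) and Abcg8 (ENSMUSG00000024254, chromosome 17, 84676302 to 84700333, plus strand) encode the 2 subunits of the sterol exporter, and their RefSeq starts face away from each other across the 109-base gap shown above. Abcg5 stood at 2630 ± 462 normalized counts in wild type (SD, n = 4), 2963 ± 773 in Ncoa5+/-, 2748 ± 450 in Tip30+/- and 3012 ± 899 in double heterozygotes. Abcg8 stood at 3123 ± 965, 3570 ± 1458, 4027 ± 1010 and 3364 ± 1699 in the same order. Spread within genotypes was large for both: double heterozygotes ran from 1974 to 5719 for Abcg8, and double heterozygote 3 had the highest value of the 16 livers for both genes. Neither passed in any comparison over all 16 livers, with Ncoa5 averages of 0.12 ± 0.15 SE (95% interval -0.20 to 0.45) and -0.10 ± 0.25 (-0.64 to 0.44). Within mice numbered under 4300, a fit chosen after the data were seen, Abcg8 passed in double heterozygotes against Tip30+/- (-0.96, adjusted p = 0.0379 by limma). A GENCODE transcript of Abcg8 begins inside Abcg5, and the 2 genes share 82 exon bases on opposite strands, 3.02% and 2.19% of their exon bases.

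Over the 10 transporters as a whole, the Ncoa5 average was below 0 for 9 and above 0 for Abcg5 (below 0 for 8 under TMM or upper-quartile scaling, where Abcb4 turned above 0), with a median log2 difference of -0.21 against -0.01 over all genes tested. The median over 8 hepatocyte markers was -0.26, with 6 below 0 and 2 above, so such a shift was not particular to the transporters. Of the 10, 1 passed, against 7.89% of all genes. An unadjusted p under 0.05 by limma was seen for 3 (Slc10a1, Slco1b2 and Abcc3), against 26.1% of all genes. Both counts are near those shares. In Tip30+/- against wild type 9 were above 0 with a median of 0.10, and 0 passed by limma, DESeq2 or edgeR, with 1 at an unadjusted p under 0.05 against 7.34% of all genes. In double heterozygotes against wild type 7 were below 0 with a median of -0.14 (6 under TMM and 5 under upper-quartile scaling), and 0 passed by any of the 3 tools, with 2 at an unadjusted p under 0.05 against 22% of all genes. In Ncoa5+/- against wild type 6 were below 0 with a median of -0.16, and 0 passed by any of the 3 tools, with 1 at an unadjusted p under 0.05 against 10.2% of all genes. For the Tip30 average, where 0.131% of genes passed, for double heterozygotes against Ncoa5+/- and for the interaction, where 0% passed, 0 transporters passed by any of the 3 tools and 0 had an unadjusted p under 0.05, against 11.8%, 8.93% and 4.26% of all genes in that order. These comparisons share mice, so their directions are not independent.

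Many pairs of transporters varied together from liver to liver. The share of such pairs among other genes is not given here, and genes outside the transporters reached r of 0.967 with them. Of the 45 pairs, 44 had a positive Pearson r over the 16 livers and 17 passed (permutation test with 100000 resamples, adjusted over the 45 pairs), all positive. With each value taken from its genotype mean 16 pairs passed, 14 of them among the 17. Abcg5 and Abcg8 were among the closest (r = 0.889, rho = 0.874, permutation p = 1e-05 for r, the smallest the test can give, adjusted p = 0.00045; r = 0.959 within genotypes). Without the 2 livers farthest from the median of Abcg5 their r was 0.844. Slco1b2 and Abcc3 had r = 0.902 and rho = 0.868 (permutation p = 2e-05, adjusted p = 0.00045), and 0.870 without the 2 livers farthest in Slco1b2. Slc10a1 went with Slco1b2 (r = 0.815, rho = 0.759, permutation p = 0.00035, adjusted p = 0.00214), and r was 0.860 without the 2 farthest livers. Slc10a1 did not go with Abcg5 (r = 0.01, rho = 0.00, permutation p = 0.975).

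**Figure D4:**
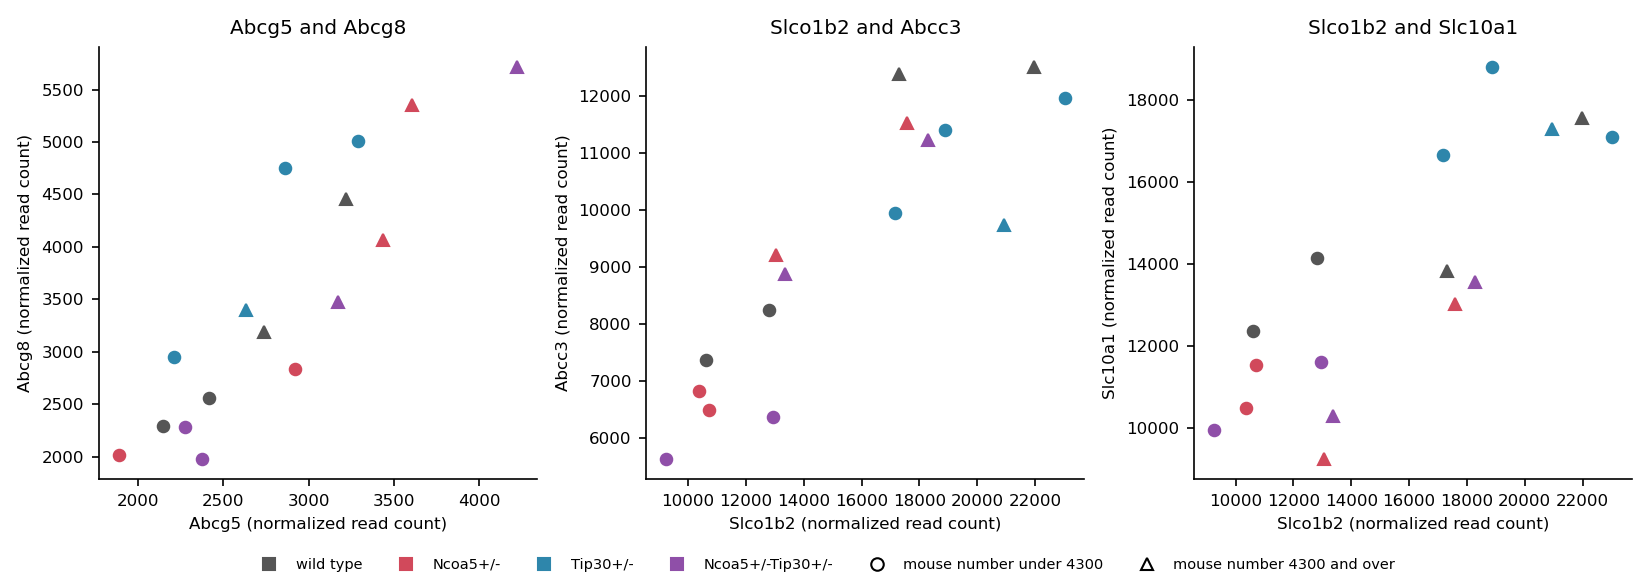
Normalized read counts of 3 pairs of transporters, 1 point per liver, coloured by genotype, with circles for mice numbered under 4300 and triangles for 4300 or over. Abcg5 and Abcg8 rise together over all genotypes (r = 0.889), as do Slco1b2 and Abcc3 (r = 0.902) and Slco1b2 and Slc10a1 (r = 0.815).

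**Figure D5:**
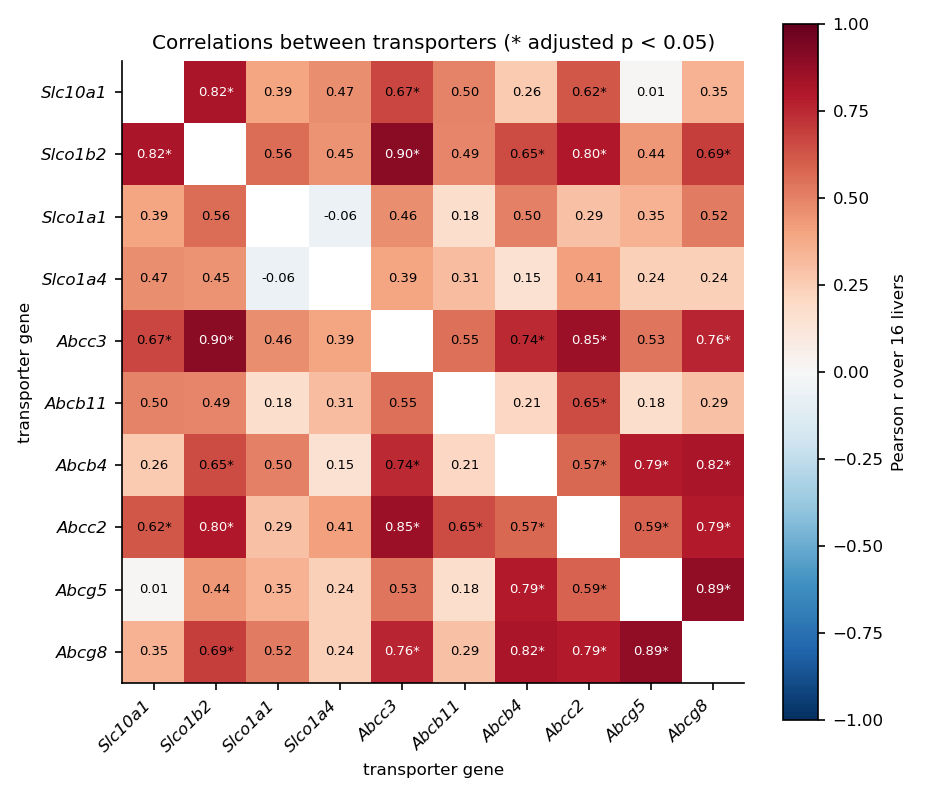
Pearson r between log2 values of each pair of transporters over 16 livers, with an asterisk where the permutation p adjusted over 45 pairs is under 0.05. The 17 marked pairs are all positive, and Slco1a1 and Slco1a4 take part in none of them.

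With genotype in the fit, all 10 transporters were higher in mice numbered 4300 or over, and only Slco1b2 and Abcc3 passed, where 2.65% of genes passed. The share of all genes that were higher there is not given here, so this direction cannot be read as particular to the transporters. The log2 differences ran from 0.06 ± 0.13 SE (Slco1a4) to 1.54 ± 0.87 (Slco1a1). Taking values from the genotype means does not remove this shift. The correlations were also computed within each range of mouse numbers. In the 9 livers under 4300, r was 0.812 for Abcg5 and Abcg8, 0.939 for Slco1b2 and Abcc3 and 0.921 for Slc10a1 and Slco1b2 (permutation p = 0.00804, 0.00058 and 0.00089). In the 7 livers at 4300 or over it was 0.903, 0.667 and 0.986 (permutation p = 0.00414, 0.123 and 0.00126). Other pairs did not hold there: 11 of the 45 had a negative r in those 7 livers, against 5 in the 9 others. Of the 17 pairs that passed over all livers 2 turned negative, Slco1b2 with Abcg8 (0.690 over 16 livers, 0.906 under 4300, -0.38 at 4300 or over) and Abcc3 with Abcg8 (0.762, 0.895 and -0.28). Within those 7 livers 4 of the 45 pairs passed, and without wild type 4, the liver with the highest values of Abcb11, Abcb4, Abcc2 and Abcc3, 11 of 45 passed over the other 15. The 10 values of a liver share 1 library and 1 size factor.

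Among the 12951 named genes compared, those most like each transporter over the 16 livers, by Pearson r of log2 values, are given as a description. Slc10a1 was nearest to Cryz (r = 0.955), a quinone oxidoreductase, and Aldh5a1 (0.953), a mitochondrial aldehyde dehydrogenase. Slco1b2 was nearest to Ttpa (0.967), the vitamin E transfer protein of hepatocytes, and Enpp1 (0.962). Abcc2 was nearest to Ubxn7 (0.963) and Insr (0.959), the insulin receptor, and Abcc3 to Slc4a4 (0.957) and Acot12 (0.944). Abcg8 was nearest to Mtor (0.920) and Npc1 (0.915), a lysosomal cholesterol exporter, and Abcg5 to Klhdc7a (0.890) and Cln8 (0.871). Slco1a1 was nearest to Rgs3 (0.931) and Gpr12 (0.880). Abcb11 was nearest to Tars (0.908) and Slc30a7 (0.884), Abcb4 to Tapt1 (0.925) and Rarres1 (0.896), and Slco1a4 to Tamm41 (0.845) and Ccl27a (0.792).

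Some genes of bile acid synthesis also fell with the Ncoa5 deletion. For the Ncoa5 average, all 14 tested genes of that list were below 0 (13 under upper-quartile scaling; median log2 difference -0.30 against -0.01 over all genes), and 4 fell and 0 rose past the threshold, where 3.95% of all genes fell. They include Cyp7b1, the oxysterol 7-alpha-hydroxylase (-1.05 ± 0.21 SE, adjusted p = 0.00942), Akr1d1, the bile acid 5-beta-reductase (-0.50 ± 0.11, adjusted p = 0.0147), and Baat, which conjugates bile acids to amino acids (-0.37 ± 0.10, adjusted p = 0.0383). The count was 6 by DESeq2, 3 under TMM scaling, 2 by edgeR, under upper-quartile scaling or without the 4 livers low in Zhx2, and 0 within either range of mouse numbers. Without 1 liver it ran from 2 to 6, and was 2 without wild type 1 or 4, Ncoa5+/- 2 or 4, Tip30+/- 2, 3 or 4, or double heterozygote 2 or 3. Akr1d1 and Cyp7b1 passed in all 16 fits that leave out 1 liver, and Baat in 5 of them. The median of the list was close to that of 8 hepatocyte markers (-0.26, 6 below 0) and of 16 female-biased liver genes (-0.30, 12 below 0). In double heterozygotes against wild type 3 of the 14 fell and 0 rose, where 1.27% of all genes fell, with 2 falling by edgeR, 0 without the 4 livers low in Zhx2, and 1 without wild type 1, 2 or 4 or double heterozygote 2 or 3. Of 18 other transporters, 2 fell and 0 rose: Slc10a5, an orphan relative of Slc10a1 (-0.49 ± 0.12, adjusted p = 0.0207), and Slco2b1, another organic anion carrier (-0.26 ± 0.07, adjusted p = 0.0279). Slc10a5 passed in all 16 fits without 1 liver. Slco2b1 passed in 10 of them, missing without wild type 1, Ncoa5+/- 4, Tip30+/- 3 or 4, or double heterozygote 2 or 3, and it also missed under upper-quartile scaling.

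Of 16 factors that control the transporters, 1 rose and 1 fell with the Ncoa5 deletion, where 3.94% of all genes rose and 3.95% fell. Both counts are near those shares. Of the 16 factors, 11 were below 0 and 5 above, with a median of -0.21 against -0.01 over all genes. Nfe2l2 (NRF2, the activator of antioxidant genes) was the one that rose (0.66 ± 0.08 SE, adjusted p = 6.21e-05). Rxra, the shared partner of many nuclear receptors, was the one that fell (-0.35 ± 0.07, adjusted p = 0.00655). Of 14 targets of PXR, CAR and NRF2, 2 rose (Ephx1, 0.96 ± 0.13, and Srxn1, 0.49 ± 0.10) and 1 fell (Cyp2c29, -0.52 ± 0.13). Nfe2l2, Rxra, Ephx1 and Srxn1 passed in all 16 fits without 1 liver and Cyp2c29 in 10; Cyp2c29 missed without wild type 4, Ncoa5+/- 4, Tip30+/- 3 or 4, or double heterozygote 2 or 3. Of 8 further LXR targets and 6 further FXR targets, 0 passed by limma, with 1 and 3 at an unadjusted p under 0.05, and 0 and 0 by edgeR. DESeq2 called 0 of the LXR targets and 1 of the FXR targets, Osgin1, as higher. Of 13 partners of the canalicular membrane, 0 passed by limma, DESeq2 or edgeR and 3 had an unadjusted p under 0.05 by limma. Of 10 male-biased liver genes 1 fell (Cyp7b1), of 16 female-biased ones 1 fell (Sult2a2, -0.52 ± 0.13), and of 13 acute phase genes 1 rose (Apcs, 0.37 ± 0.11). Sult2a2 passed in all 16 fits without 1 liver and Apcs in 4.

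Markers of other cell types moved with the Ncoa5 deletion as well. Of 8 lymphocyte markers 3 rose (Cd8a, Nkg7 and Cd3e), of 8 stellate cell markers 2 (Col1a1 and Col3a1) and of 8 cholangiocyte markers 1 (Spp1), and 0 fell. Over all genes 3.94% rose. Cd8a rose by 3.15 ± 0.37 SE on the log2 scale, Nkg7 by 1.41 ± 0.21, Cd3e by 1.25 ± 0.32 and Col1a1 by 0.97 ± 0.20. Cd8a, Nkg7, Col1a1 and Spp1 passed in all 16 fits without 1 liver, Cd3e in 11 and Col3a1 in 4. Of 8 macrophage, 8 sinusoidal endothelium and 3 enterocyte markers 0 passed by limma, DESeq2 or edgeR, with 2, 1 and 0 at an unadjusted p under 0.05 by limma. Of 8 hepatocyte markers 0 passed by any of the 3 tools, 2 had an unadjusted p under 0.05 by limma and the median was -0.26. Summed lymphocyte markers ran from 133 to 456 normalized counts in wild type, 401 to 546 in Ncoa5+/-, 177 to 373 in Tip30+/- and 372 to 498 in double heterozygotes. Summed cholangiocyte markers ran from 1182 to 1618, 1993 to 2539, 1574 to 2885 and 2101 to 3217 in the same order. Summed hepatocyte markers ran from 2255080 to 3294510 in wild type, 2246720 to 2968680 in Ncoa5+/-, 2805250 to 3255240 in Tip30+/- and 2134960 to 2793570 in double heterozygotes. Double heterozygotes thus lay below Tip30+/- livers in this sum by a narrow gap, 2793570 against 2805250, while Ncoa5+/- livers overlapped with Tip30+/- livers. Of single genes, 9.05% did not overlap and were lower in double heterozygotes than in Tip30+/- livers. The part of these cell types in the lower Slc10a1 was not tested.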

How the data were processed

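Liver messenger RNA was selected with oligo(dT) and sequenced from 16 mice. Per the submitters' processing notes the authors used Trimmomatic 0.36 for trimming, STAR 2.6.0c for alignment to GRCm38 and DESeq2 1.28.1 for normalization; which gene counter and annotation release they used is not given. The deposited signal values are, per the file headers, counts divided by a size factor per library, and every value came out as a whole read to a tolerance of 1e-04. Here log2(value + 1) was fitted with limma 3.58.1 (trend, robust, R 4.3.3), 4 group means over 16 livers, on 15263 genes with a mean of at least 10, with the 10 transporters always kept. Each of 9 comparisons was tested 2-sided and adjusted by Benjamini-Hochberg over all genes; genes with an adjusted p under 0.05 passed. An adjusted p for a gene is from limma unless another test is named. Allele averages weigh both backgrounds equally, and exact permutation tests used 70 arrangements of 8 mice, or 4900 within backgrounds. Percentages of a reference group are powers of 2 of the fitted log2 difference. The labels do not say whether mice share litters or days, so p-values measure the spread between these mice.

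The members and gene lists were chosen with earlier results of these data known. All 10 transporters are named in every comparison; from each list up to 3 genes that passed, by smallest p; and for each transporter the 2 most correlated named genes. Positions and exon lengths are from GENCODE M21. Alternatives were DESeq2 1.42.0, edgeR 4.0.16 and limma-voom on recovered whole reads, a pseudocount of 0.5 or 5, the low-value filter dropped or set at 50, TMM and upper-quartile scaling, sample weights, moderation that is not robust, the compared groups alone, the mouse-number range as a term, the 4 livers low in Zhx2 left out, and each mouse left out. Fits within each mouse-number range were chosen after seeing the data. The fit was tested on simulated data.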

Additional observations from a re-analysis of the deposited data

Results flagged for a closer look

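Slco1a1 in wild type 4 stood at 1799 normalized counts, far above the other 3 wild-type livers at 59.3 to 198. The gap to the nearest was 0.921 of the range of the group, beyond the 95% critical value for 4 samples. Of the 40 groups examined (10 transporters in 4 genotypes) this was the only such liver. Chance flags about 1 in 20 groups, so 1 in 40 is no excess. The gap was taken on normalized counts and not on log2 values, and wild type 1 and 2 are low in Zhx2. Without wild type 4 the adjusted p of Slco1a1 against wild type was 0.8294 in Ncoa5+/-, 0.426 in Tip30+/- and 0.337 in double heterozygotes, by limma.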

How the results depend on the processing

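The lower Slc10a1 with the Ncoa5 deletion passed in 30 of 31 settings, with log2 differences from -0.55 to -0.45 and adjusted p from 1.996e-05 to 0.238, and in all 16 fits without 1 mouse (adjusted p 0.00192 to 0.0112). Against Tip30+/- livers it passed in 19 of 24 settings in double heterozygotes and in 22 of 24 in Ncoa5+/-. Over 90 transporter values, 2346 of 2370 alternative values kept their side of the threshold, 8 lost a call and 16 gained one. No called value reversed, but 194 of the 2346, which passed in neither setting, changed sign; the other 2152 kept direction too. Transporters called for the Ncoa5 average numbered 1, but 3 with the mouse-number range as a term, 4 within mice numbered under 4300 and 0 within those of 4300 or over. Under the same 3 settings, double heterozygotes against Tip30+/- went from 1 to 3, 5 and 0, and Ncoa5+/- against Tip30+/- from 1 to 2, 3 and 0. Without the 4 livers low in Zhx2 the last was 0, and without 1 mouse the count for double heterozygotes against Tip30+/- was 0 to 1. Under 4300, double heterozygotes against wild type went from 0 to 1 (Abcb11), and Tip30+/- against wild type from 0 to 1 (Slco1b2, 0.74, adjusted p = 0.0409). The only wild-type livers in those 2 comparisons, wild type 1 and 2, are both low in Zhx2. The 17 correlated pairs became 4 within mice numbered 4300 or over and 11 to 19 without 1 mouse. Over all genes, those called for the Ncoa5 average were 602 higher and 603 lower, 630 and 510 under TMM and 743 and 283 under upper-quartile scaling; for double heterozygotes against Tip30+/- 245 and 224 became 255 and 147, and 314 and 107; against wild type 213 and 194 became 220 and 162, and 271 and 118. The 1205 genes called for the Ncoa5 average were 36 within mice numbered 4300 or over and 1937 with the mouse-number term. The fits within a range of mouse numbers hold 9 and 7 mice, and beyond that the cause of these changes was not tested. No paired analysis was possible because mouse numbers within a genotype only follow the order of the samples.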
